A study of Mus musculus with 6 samples.

Results

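The cell cycle and DNA replication genes of newborn mouse epidermis were taken as a list of 47 genes: 24 that act in G1 and S phase, 16 that act in G2 and mitosis, and 7 inhibitors of the cycle. The array's RefSeq accessions, matched to mouse symbols, gave 67 probes for 45 of the 47, among 18217 genes named on the array. The G1 cyclin gene Ccnd1 and the ribonucleotide reductase subunit gene Rrm2 had no matched probe, so their expression was not analysed here. Of the matched genes 44 were tested, among 12824 tested genes. The remaining gene, Cdkn2a (p16 and p19ARF), was not well above background on the 6 arrays. The samples were 3 AhRCA epidermes and 3 wild-type (WT) epidermes, all at postnatal day 0 and of a mixed strain. In AhRCA mice the keratin 14 promoter drives an always-active version of AhR, the aryl hydrocarbon receptor, which is a transcription factor normally switched on by ligands. That promoter is active in basal keratinocytes, whereas the RNA came from whole epidermis. Every sampling paired 1 AhRCA mouse with 1 WT littermate, and each animal had its own 1-colour Agilent array.

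The cell cycle runs from G1 through S phase, where DNA is copied, to G2 and mitosis. D-type cyclins with Cdk4 or Cdk6, and then cyclin E with Cdk2, inactivate the retinoblastoma protein Rb1 and release E2F factors, which turn on the genes of DNA replication. Mybl2 and Foxm1 act later, on the genes of mitosis, many of which carry a cell cycle homology region and CCAAT boxes in their promoters. In the epidermis division is mostly confined to the basal layer and the hair follicle, and keratinocytes leave the cycle as they move up. AhR is known in other cell types to slow the entry into S phase, in part through Rb1 and the inhibitor p27, the product of Cdkn1b.

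On each array 56.2% to 61.3% of spots passed the scanner's test of being well above background, and 0 were saturated. The number of arrays limits the precision. Arrays of pairs 1 and 2 lay on slide 1 and those of pair 3 on slide 2. Xist, the transcript of the inactive X chromosome, was bright on the 4 arrays of slide 1 (normalized log2 intensity 4.43 to 4.66), against -7.14 in AhRCA 3 and -4.20 in WT 3. The Y-linked transcripts Ddx3y, Eif2s3y and Kdm5d were well above background on both arrays of slide 2 and on 0 arrays of slide 1. Slide, pair 3 and male sex therefore coincided and cannot be told apart, while both slides held both genotypes. The labelled tissue was checked with keratins. Krt5 of the basal layer stood at 8.12, 8.25 and 8.06 in AhRCA 1 to 3 and at 8.11, 8.17 and 8.10 in WT 1 to 3, and Krt10 of the spinous layer between 8.69 and 9.02 on all 6 arrays. The RNA was not of keratinocytes alone. The fibroblast marker Dcn stood between 4.08 and 4.54 and the melanocyte marker Dct between 5.68 and 6.22. Of 5 tested fibroblast markers 0 passed and 3 had positive differences, while Col1a2 was lower on all AhRCA arrays (difference -1.19).

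No cell cycle gene passed the test of a difference between the genotypes. Of 44 tested members 0 passed an adjusted p of 0.05 (limma, Benjamini-Hochberg over all genes), where 2.18% of all genes passed in either direction. An unadjusted p under 0.05 was found for 2 members, Mcm2 and Cdkn2c, against 12.2% of all genes. These were also the 2 members whose AhRCA arrays all lay below the WT arrays, which held for 8.84% of all genes. For 0 members did the AhRCA arrays all lie above the WT arrays, against 7.52% of all genes. The differences were small. They ranged from -0.58 (Cdkn1c) to 0.42 (Cdk6) on the log2 scale. For 41 of the 44 genes the 95% interval of the difference stayed within 1 log2 unit (2-fold) of 0 in both directions. The 3 exceptions were E2f1, Cdk6 and Cdkn1c. The sign leaned one way: 35 of 44 differences were negative, with a median of -0.12, against 49.6% of all genes and a median of 0.0013. Without WT 1 only 24 of the 44 were negative, in a fit that breaks pair 1 and leaves the slides unequal between the genotypes.

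With the littermate pair as a block 0 members passed as well (smallest adjusted p = 0.0987, E2f1, limma, Benjamini-Hochberg), where 3.88% of all genes did. An unadjusted p under 0.05 then held for 6 members, E2f1, Mybl2, Mcm2, Mcm5, Cdkn2c and Cdkn1c, all of them lower in AhRCA, against 17.7% of all genes in either direction. Over the 3 pairs, 12 of the 44 genes were lower in AhRCA in every pair, where 20.1% of all genes were. Conversely 0 were higher in every pair, where 19.7% of all genes were. The 12 lower genes were unevenly spread: 10 of 22 G1/S genes, 0 of 16 G2/M genes and 2 of 6 inhibitors.

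**Figure D1:**
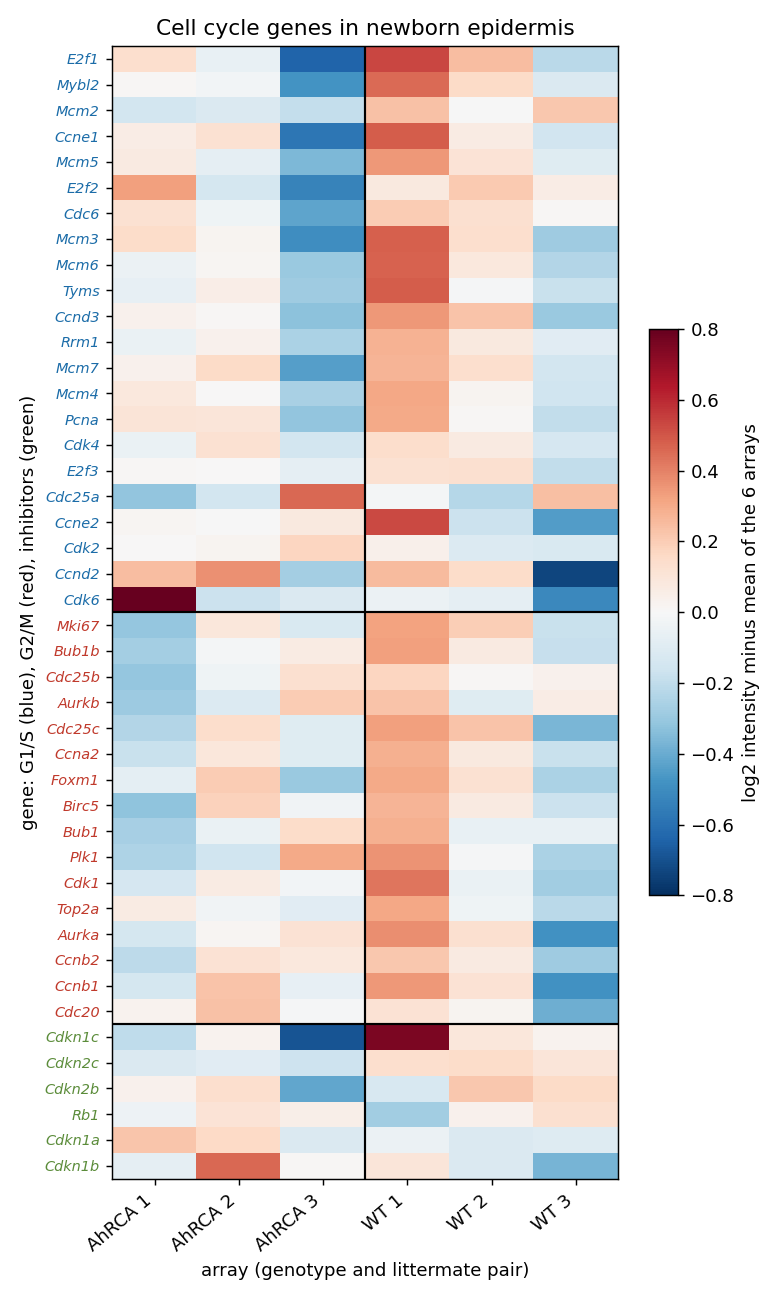
Each row is a tested cell cycle gene and each column an array, with AhRCA 1 to 3 left of WT 1 to 3; colour shows log2 intensity minus the gene's mean over the 6 arrays. Most G1/S rows are highest in WT 1 and low in AhRCA 3, and most G2/M rows are highest in WT 1 and low in AhRCA 1 and WT 3, so that no row block splits cleanly by genotype.

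Among the G1/S genes 0 of 22 tested members passed, where 2.18% of all genes did. Differences were negative for 18 of them, against 49.6% of all genes, and the median difference was -0.19 on the log2 scale. That median was -0.035 without WT 1 and -0.034 without AhRCA 3. Each of these fits breaks a pair and leaves the slides unequal between the genotypes. Within pairs 1 to 3 the medians were -0.29, -0.058 and -0.11, with 20, 13 and 16 of 22 genes lower in AhRCA. Over all genes 47.7%, 44.5% and 56.6% were lower in these pairs. All 6 subunits of the MCM helicase, which unwinds DNA at the replication fork, had negative differences, and Mcm2, Mcm3, Mcm4, Mcm5 and Mcm6 were lower in AhRCA in all 3 pairs. Mcm2 stood at 1.37, 1.40 and 1.32 (normalized log2 intensity, 0 being the array's 75th percentile) in AhRCA 1 to 3, against 1.75, 1.51 and 1.73 in WT 1 to 3. Its groups did not overlap, and the AhRCA arrays were the tighter set (SD 0.036, against 0.13 in WT, n = 3 each). The difference was -0.30 ± 0.11 (SE), or 0.813-fold, and its adjusted p in limma was 0.331. Mcm5 stood at 3.05, 2.91 and 2.62 in AhRCA 1 to 3 and at 3.33, 3.09 and 2.88 in WT 1 to 3. Here each AhRCA mouse was below its own littermate, with within-pair log2 differences of -0.28, -0.18 and -0.26, but both mice of pair 3 were low and the groups overlapped. The other MCM genes had differences of -0.22 (Mcm3, Mcm6), -0.17 (Mcm7) and -0.11 (Mcm4).

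Promoter windows of Mcm2 and Mcm5 are shown because Mcm2 was the G1/S member whose groups did not overlap on the tested probe and Mcm5 holds several E2F core matches; Mcm5 was chosen after its values were seen. The windows run from 250 bases before to 50 bases after the start (RefSeq, GRCm38.p6), at chr6:88898731-88899030 on the minus strand and chr8:75109259-75109558 on the plus strand. They are printed 5′ to 3′ along the gene, and capitals mark matches on either strand to the motifs searched.
Mcm2: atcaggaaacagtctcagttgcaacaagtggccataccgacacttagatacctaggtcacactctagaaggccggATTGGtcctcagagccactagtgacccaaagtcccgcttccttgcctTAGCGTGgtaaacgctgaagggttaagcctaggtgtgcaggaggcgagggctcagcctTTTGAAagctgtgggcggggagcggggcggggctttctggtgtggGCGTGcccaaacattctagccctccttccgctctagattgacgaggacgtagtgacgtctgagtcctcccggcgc
Mcm5: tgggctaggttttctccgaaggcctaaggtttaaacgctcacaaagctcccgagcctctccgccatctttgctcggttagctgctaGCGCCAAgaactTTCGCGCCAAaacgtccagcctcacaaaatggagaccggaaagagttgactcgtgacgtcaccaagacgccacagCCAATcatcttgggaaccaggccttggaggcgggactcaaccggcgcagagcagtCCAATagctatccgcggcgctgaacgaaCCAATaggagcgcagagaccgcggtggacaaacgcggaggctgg
The motifs were the AhR response core GCGTG, its longer form TNGCGTG, the E2F core spelled as TTCGCGC, as TTGGCGC or as TTCCCGC, the cell cycle homology region as TTTGAA or TTCGAA, and CCAAT. The Mcm2 window holds the AhR core at -126 and -25 from the start, the first of them inside a match to the longer form at -128. It also holds TTTGAA at -70 and a CCAAT box in reverse, but no E2F core as spelled here. The Mcm5 window holds 3 E2F cores, at -164, -152 and -149, the last 2 of them overlapping, and 3 CCAAT boxes, and no AhR core. A match is a description of the letters and not a site. Of the 20 G1/S genes with a window, which include the untested Rrm2, 50% held an E2F core, against 8.21% of 27025 promoters of this length. The AhR core was in 40% of them, against 32.5%, and the longer form in 5%, against 5.12%.

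The E2F factors, which drive S phase genes, and Mybl2 had negative differences on their tested probes. E2f1 stood at -0.97, -1.16 and -1.74 in AhRCA 1 to 3, against -0.56, -0.85 and -1.31 in WT 1 to 3. Within pairs the log2 differences were -0.40, -0.31 and -0.43, while across animals the ranges of the genotypes overlapped. The difference was -0.38 ± 0.26 (SE, adjusted p = 0.791, limma, Benjamini-Hochberg), and the second E2f1 probe gave -0.42. It was -0.15 without AhRCA 3 and -0.58 without WT 3. Mybl2 stood at -0.35, -0.38 and -0.83 in AhRCA 1 to 3 and at 0.094, -0.20 and -0.47 in WT 1 to 3, a difference of -0.33 ± 0.20. Its WT littermate was higher in each pair, and the groups overlapped. E2f2 had -0.23 ± 0.22, with within-pair differences of 0.25, -0.35 and -0.59, and E2f3 -0.038 ± 0.13.

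The cyclins and kinases of G1 showed no common sign. Cdk6, a partner of the D-type cyclins, had the highest difference of all members, 0.42 ± 0.31 (SE, adjusted p = 0.825, limma, Benjamini-Hochberg). It stood at -0.69, -1.79 and -1.73 in AhRCA 1 to 3 and at -1.66, -1.69 and -2.13 in WT 1 to 3. The single array AhRCA 1 lay apart from the rest, and without it the difference was 0.066. Ccnd2, a D-type cyclin gene, had 0.23 ± 0.30 and its relative Ccnd3 -0.19 ± 0.20. The S phase kinase gene Cdk2 had 0.13 ± 0.11, Cdk4 -0.052 ± 0.13, and the cyclin E genes Ccne1 and Ccne2 -0.26 ± 0.24 and 0.061 ± 0.24. Cdc25a, a phosphatase that activates Cdk2, had a difference of -0.0008 ± 0.23.

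The remaining S phase genes were close together and below 0. Pcna, the sliding clamp of the replication polymerases, had -0.078 ± 0.18, and Rrm1, the large subunit of ribonucleotide reductase, had -0.18 ± 0.14. Tyms, which makes thymidylate, had -0.20 ± 0.20 and Cdc6, which loads the MCM helicase onto origins, -0.23 ± 0.16. Rrm1 and Cdc6 were lower in AhRCA in every pair.

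**Figure D2:**
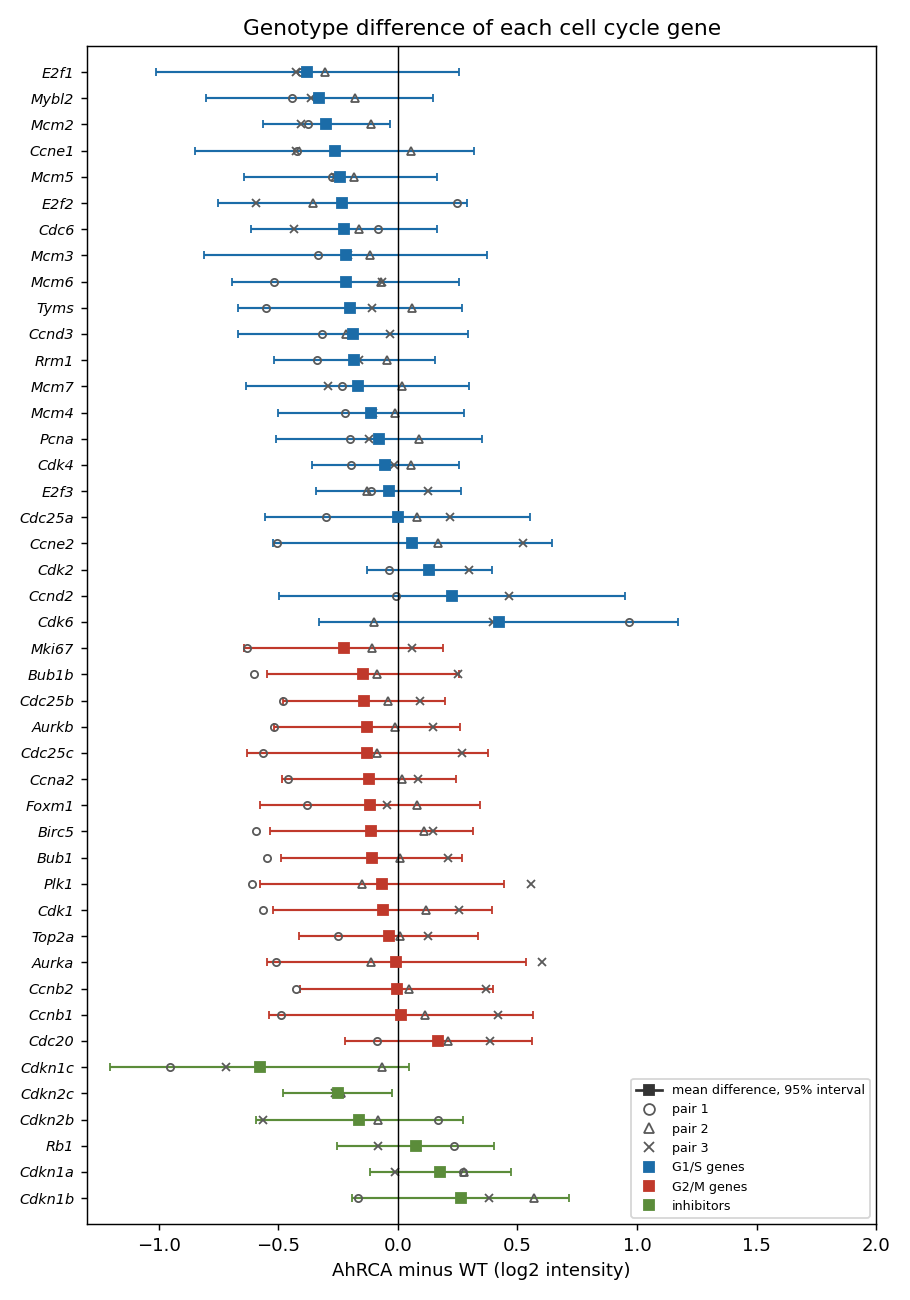
Squares give the difference AhRCA minus WT (log2 intensity, 3 arrays per genotype) with its 95% interval from limma for each tested cell cycle gene, and grey symbols the 3 littermate pairs. Intervals of 42 of the 44 genes cross 0, those of Mcm2 and Cdkn2c lie just below it, and in the G2/M block pair 1 sits on the left in all 16 rows.

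Among the G2/M genes 0 of 16 passed, 0 had an unadjusted p under 0.05, and the groups overlapped for all 16. Of all genes 2.18% passed and 12.2% had an unadjusted p under 0.05. The AhRCA arrays all lay below the WT arrays for 8.84% of all genes and above for 7.52%. Their median difference was -0.11 on the log2 scale, with 14 negative. Mki67, the gene of the proliferation antigen Ki-67, stood at 3.75, 4.14 and 3.93 in AhRCA 1 to 3, against 4.38, 4.25 and 3.87 in WT 1 to 3. The highest array was WT 1 and the lowest AhRCA 1, with the other 4 between them. The difference was -0.23 ± 0.17 (SE, adjusted p = 0.841, limma, Benjamini-Hochberg), with a 95% interval from -0.64 to 0.19. Cdc20, an activator of the anaphase-promoting complex, stood at 3.99, 4.19 and 3.95 in AhRCA 1 to 3 and at 4.07, 3.98 and 3.57 in WT 1 to 3, a difference of 0.17 ± 0.16. Bub1b, of the spindle checkpoint, stood at 0.36, 0.62 and 0.71 in AhRCA 1 to 3 and at 0.97, 0.71 and 0.46 in WT 1 to 3, a difference of -0.15 ± 0.17. The arrays of both genotypes interleave for both genes. The remaining 13 genes lay between -0.14 (Cdc25b, an activator of Cdk1) and 0.014 (Ccnb1, cyclin B1). They include the mitotic kinase gene Cdk1 (-0.064 ± 0.19) and its cyclin genes Ccna2 (-0.12 ± 0.15) and Ccnb2 (-0.0048 ± 0.17). The kinase gene Aurkb, the Cdk1 activator gene Cdc25c, the survivin gene Birc5 and the checkpoint kinase gene Bub1 had -0.13, -0.13, -0.11 and -0.11. The 13 also include Top2a, which untangles chromosomes (-0.039 ± 0.16), and Foxm1, the transcription factor of mitotic genes (-0.12 ± 0.19).

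Most G2/M genes shared a sign within pair 1 and the opposite sign within pair 3. In pair 1 all 16 were lower in AhRCA, with a median of -0.51 on the log2 scale and a range from -0.63 (Mki67) to -0.087 (Cdc20), where 47.7% of all genes were lower in that pair. In pair 2 the median was 0.0073 and 7 of 16 were lower, against 44.5% of all genes. In pair 3 the median was 0.23, and only Foxm1 was lower, against 56.6% of all genes. Each pair is 1 animal against 1, so these are values with no replicate check. Plk1, a kinase that drives mitotic entry, stood at 1.79, 1.88 and 2.34 in AhRCA 1 to 3 and at 2.40, 2.03 and 1.78 in WT 1 to 3. Its order by pair was opposite in the genotypes, and the within-pair differences were -0.61, -0.15 and 0.56. Aurka, the kinase of spindle poles, had -0.51, -0.11 and 0.60. A test of whether the genotype difference was unequal on the 2 slides gave 0 members with an adjusted p under 0.05 (smallest 0.492, limma, Benjamini-Hochberg). Slide 2 held 1 array per genotype, so the spread in this test came from slide 1 alone and a count of 0 says little. At an unadjusted p under 0.05 there were 2, Aurka and Plk1, where 9.98% of all genes were found. After adjustment 0.0078% of all genes passed, a single gene, the olfactory receptor Olfr638, named here after its value was seen. The G2/M median of -0.11 also moved when 1 array was left out, in fits that break pair 1. Without WT 1 the median was 0.0056 and 6 of 16 genes were negative, and without AhRCA 1 it was -0.014.

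The G2/M genes shared promoter letters that the list was not chosen by. Of the 12 with a window, 83.3% held the cell cycle homology region and 91.7% CCAAT, against 19.4% and 37.9% of all promoters. In the G1/S genes these shares were 15% and 60%. The AhR core was in 50% of the G2/M windows and its longer form in 0 of 12. The window of Mki67, the G2/M gene with the smallest p, is shown as an example and was chosen after its values were seen (chr7:135716330-135716629, minus strand, GRCm38.p6, same marking).
Mki67: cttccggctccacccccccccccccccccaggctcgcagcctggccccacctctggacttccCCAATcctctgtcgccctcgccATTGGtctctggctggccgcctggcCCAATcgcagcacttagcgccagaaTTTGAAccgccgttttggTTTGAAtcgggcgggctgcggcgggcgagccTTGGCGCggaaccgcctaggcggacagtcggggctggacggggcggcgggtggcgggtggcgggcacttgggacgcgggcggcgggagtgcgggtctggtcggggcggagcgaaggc
It holds TTTGAA at -116 and -98, CCAAT on either strand at -188, -166 and -141, and an E2F core at -67.

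**Figure D3:**
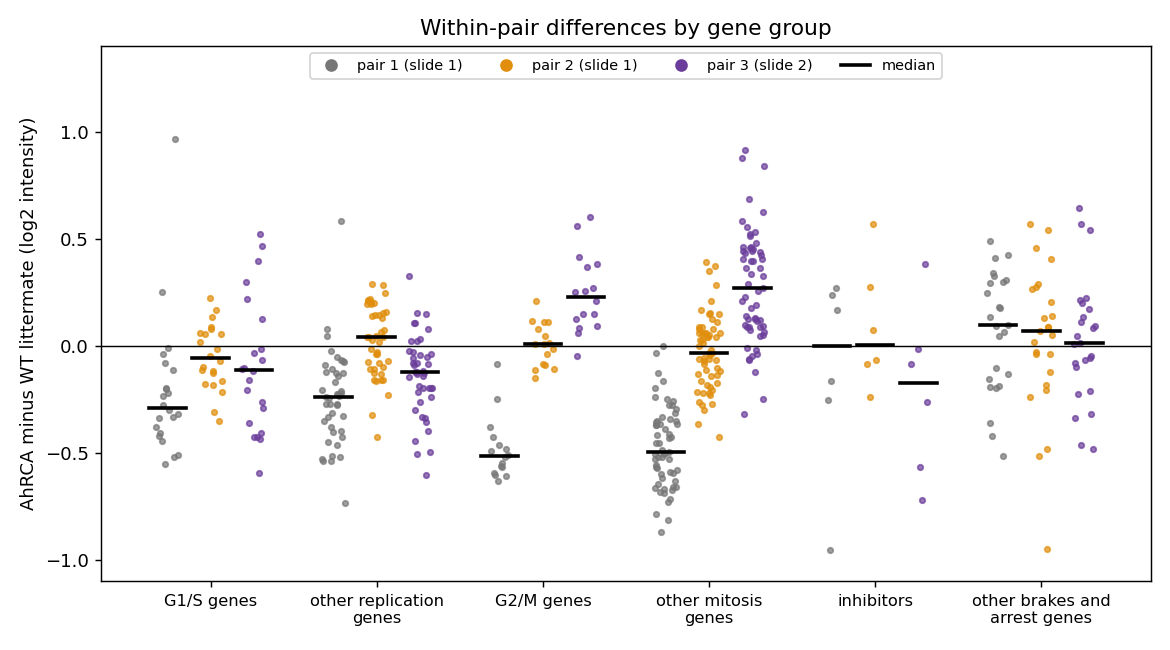
Points give AhRCA minus its WT littermate (log2 intensity) for each gene in pairs 1, 2 and 3, and black bars the median of each gene group. G2/M and other mitosis genes step from medians near -0.5 in pair 1 through 0 in pair 2 to above 0.2 in pair 3, while replication genes lie below 0 in pairs 1 and 3.

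Among the 6 tested inhibitors 0 passed, where 2.18% of all genes did, with 3 negative and 3 positive differences. Cdkn2c, the gene of p18, which binds Cdk4 and Cdk6, stood at 0.76, 0.78 and 0.71 in AhRCA 1 to 3, against 1.01, 1.02 and 0.97 in WT 1 to 3. Its SD was 0.038 in AhRCA and 0.026 in WT, which is the lowest WT SD of the tested members. The groups did not overlap, and the within-pair differences were -0.25, -0.24 and -0.26. The difference of -0.25 ± 0.095 (SE), or 0.840-fold, reached an adjusted p of 0.342 in limma. Cdkn1c, the gene of p57, had the lowest difference of all members, -0.58 ± 0.26 (0.67-fold, adjusted p = 0.471). It stood at -1.66, -1.43 and -2.15 in AhRCA 1 to 3 and at -0.70, -1.36 and -1.43 in WT 1 to 3. WT 1 was the highest array and AhRCA 3 the lowest, and the groups overlapped only in that AhRCA 2 and WT 3 were level.

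The window of Cdkn2c is shown because its groups did not overlap (chr4:109666707-109667006, minus strand, GRCm38.p6, the first of 2 windows listed for the gene, same marking).
Cdkn2c: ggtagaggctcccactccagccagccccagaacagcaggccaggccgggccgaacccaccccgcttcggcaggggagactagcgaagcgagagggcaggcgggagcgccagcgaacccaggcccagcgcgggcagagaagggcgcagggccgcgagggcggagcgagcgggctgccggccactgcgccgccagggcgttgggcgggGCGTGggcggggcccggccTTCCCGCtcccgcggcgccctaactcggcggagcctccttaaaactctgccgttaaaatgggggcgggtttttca
It holds the AhR core at -44 and the E2F core TTCCCGC at -25. Of 5 inhibitor genes with a window, which include the untested Cdkn2a, 4 held the AhR core and 1, Cdkn1b, its longer form.

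Cdkn1a, the gene of p21, a target of p53, stood at 3.84, 3.77 and 3.50 in AhRCA 1 to 3 and at 3.57, 3.50 and 3.52 in WT 1 to 3. It was higher in AhRCA in both pairs of slide 1 and level in pair 3, a difference of 0.18 ± 0.12 (adjusted p = 0.790, limma, Benjamini-Hochberg). Cdkn1b, the gene of p27, stood at 0.81, 1.34 and 0.89 in AhRCA 1 to 3 and at 0.98, 0.77 and 0.51 in WT 1 to 3, a difference of 0.26 ± 0.19 (adjusted p = 0.810). The groups overlapped through WT 1. Cdkn2b, the gene of p15, had -0.16 ± 0.18 and Rb1 had 0.075 ± 0.14.

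**Figure D4:**
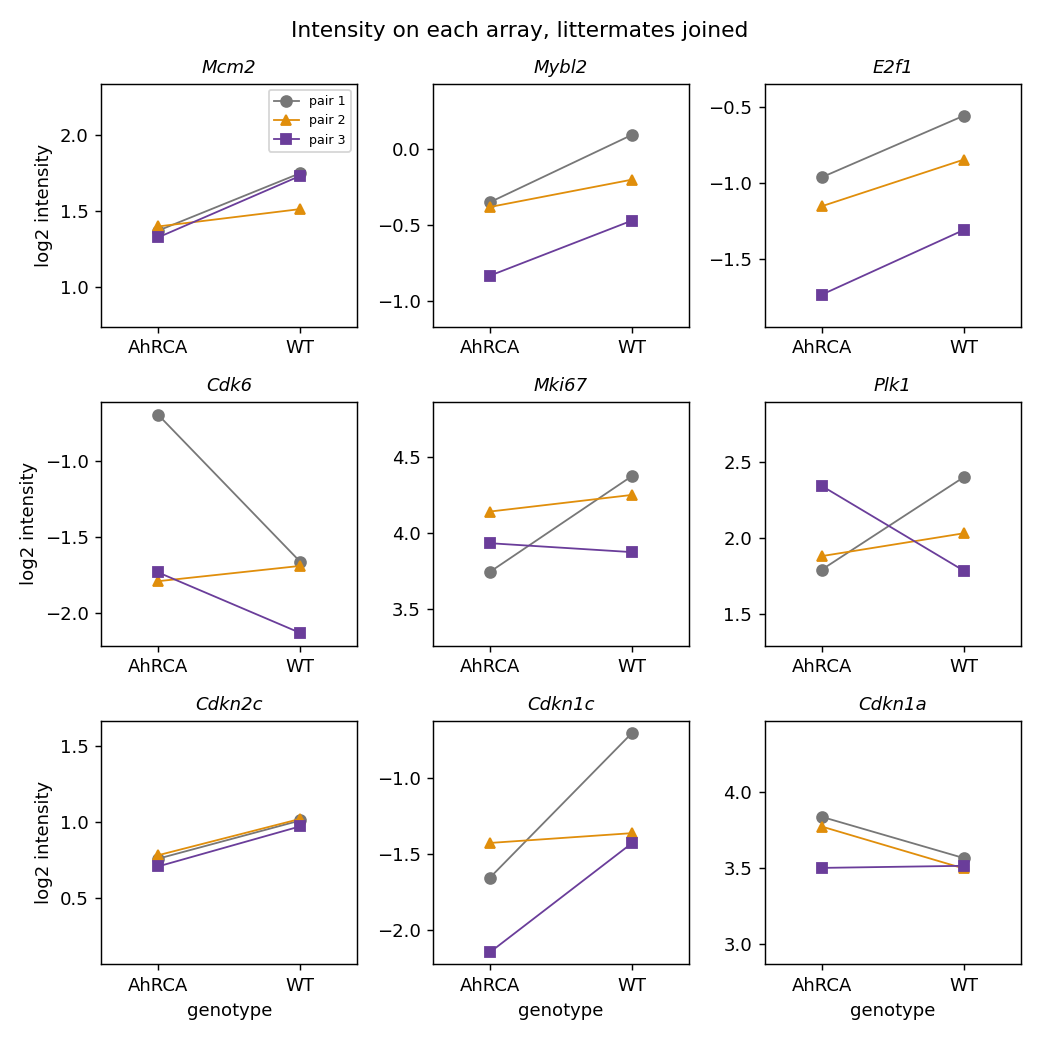
Normalized log2 intensity of 9 cell cycle genes in AhRCA (left) and WT (right), with the littermates of pairs 1, 2 and 3 joined by lines; every panel spans the same height. Mcm2 and Cdkn2c separate by genotype, E2f1 and Mybl2 slope the same way in each pair at different heights, and Plk1 slopes in opposite ways in pairs 1 and 3.

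Of the 14 members with more than 1 kept probe, the probes differed in sign for 4, Ccnb1, Ccne2, E2f3 and Top2a, whose probe differences all lay between -0.20 and 0.21. The dimmer probes of Cdkn1b, Cdc6 and Ccne1, named after their values were seen, separated the genotypes where the tested probes did not. With 1 probe per gene, AhRCA arrays all lay below WT arrays for 8.84% of all genes and above for 7.52%. The share over all kept probes was not computed, so these probes are not set apart from others by it. The second Cdkn1b probe stood at -3.07, -2.88 and -3.03 in AhRCA 1 to 3, against -3.51, -3.68 and -3.96 in WT 1 to 3. All AhRCA arrays lay above all WT arrays on it, with a difference of 0.72. The second Cdc6 probe stood at -2.06, -2.28 and -2.34 in AhRCA 1 to 3, against -1.75, -1.33 and -1.63 in WT 1 to 3. Here all AhRCA arrays lay below, with a difference of -0.66, as they did on the second Ccne1 probe, with -0.40. When every kept probe was fitted as its own row, 1.09% of all probes passed and 0 probes of members did. The adjusted p was 0.0978 for the second Cdkn1b probe and 0.137 for the second Cdc6 probe (limma, Benjamini-Hochberg).

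Many G1/S genes were low on slide 2 in both genotypes. For 15 of the 22, both arrays of slide 2 lay below all 4 arrays of slide 1, which held for 26.1% of all genes; the median of slide 2 minus slide 1 was -0.35 on the log2 scale. Ccnd2 stood at 5.27, 5.39 and 4.75 in AhRCA 1 to 3 and at 5.28, 5.17 and 4.29 in WT 1 to 3. It was low in pair 3 in both genotypes, and slide 2 minus slide 1 was -0.76 on the log2 scale. Cdc25a was the only member higher on both arrays of slide 2 than on all of slide 1, which held for 14.5% of all genes. Among G2/M genes 3 of 16, Top2a, Cdc20 and Foxm1, were below on slide 2.

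Other genes of the cycle, 155 in number in 4 lists, gave 148 tested genes, of which 0 passed, where 2.18% of all genes did, and 7 had an unadjusted p under 0.05, where 12.2% of all genes did. Over all genes 49.6% of differences were negative. Of 43 other replication genes 35 had negative differences, with a median of -0.13 on the log2 scale. The largest were Pola2, a subunit of DNA polymerase alpha (-0.37 ± 0.14), and Ung, a uracil DNA glycosylase (-0.36 ± 0.15). In both the AhRCA arrays all lay below the WT arrays, as they did for 3 of the 43 and for 8.84% of all genes. Of 59 other mitosis genes 46 were negative, with a median of -0.073; the largest were Sgo2a, a protector of cohesin (0.34 ± 0.24), and Kif15, a spindle motor (-0.32 ± 0.14). They showed the order by litter seen in the G2/M members. All 59 were lower in AhRCA in pair 1 (median -0.50), 32 in pair 2 (median -0.033) and 9 in pair 3 (median 0.27). Over all genes 47.7%, 44.5% and 56.6% were lower in these pairs. An unadjusted p under 0.05 for unequal genotype differences on the slides was found for 16 of the 59, against 9.98% of all genes, and an adjusted one for 0.

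The lists of brakes and of G1 regulators held more positive than negative differences. Of 25 other brakes and arrest genes 16 had positive differences (median 0.059), and of 21 other G1 regulators 15 (median 0.096). Negative differences made up 36% and 28.6% of the 2 lists, against 49.6% of all genes. The AhRCA arrays all lay above the WT arrays for 3 of the 25 and 4 of the 21, against 7.52% of all genes. They all lay below for 1 gene of each list, against 8.84% of all genes. Trp53inp1, a p53 target, stood at 2.81, 3.07 and 3.31 in AhRCA 1 to 3, against 2.56, 2.50 and 2.74 in WT 1 to 3. Its groups did not overlap, with a difference of 0.46 ± 0.16 (adjusted p = 0.276, limma, Benjamini-Hochberg). E2f6, a repressor of E2F target genes, stood at 1.67, 1.57 and 1.78 in AhRCA 1 to 3, against 2.18, 2.05 and 2.10 in WT 1 to 3. All AhRCA arrays were lower, and its adjusted p of 0.120 was the smallest of the 4 lists (difference -0.44 ± 0.11). Jun, an AP-1 subunit induced by growth signals, stood at 4.45, 4.75 and 4.19 in AhRCA 1 to 3, against 4.05, 4.11 and 3.68 in WT 1 to 3. The arrays separated here too, with a difference of 0.52 ± 0.19 (adjusted p = 0.318), and Id3, an inhibitor of helix-loop-helix factors, had 0.50 ± 0.32.

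Some markers of cell types in the epidermis, those of the basal layer and the hair follicle among them, differed between the genotypes. Of 5 tested sebaceous gland markers 5 were lower in AhRCA, with sums between 3.63 and 4.24 in AhRCA and between 13.3 and 18.4 in WT. Of 3 tested Merkel cell markers 2 passed, Krt8 and Krt20, both lower, and the third, Krt18, was lower on all AhRCA arrays with an adjusted p of 0.0550. Their sums lay between 0.381 and 0.600 in AhRCA and between 1.33 and 2.13 in WT, and the defining markers Atoh1 and Sox2 were not above background. Of 7 tested Langerhans and myeloid cell markers 2 passed, Cd207, which marks Langerhans cells, and the macrophage marker Adgre1. Adgre1 was higher in AhRCA (0.67 ± 0.10, adjusted p = 0.0321, limma). Cd207 was lower, but it was well above background on 3 WT arrays and 0 AhRCA arrays. It was kept only through the WT arrays, so its call is no support and the size of its fall was not measured. The antigen presentation genes H2-Aa, H2-Ab1 and Cd74 had differences of -1.55, -1.64 and -1.15 with no overlap of the groups. Hair follicle markers summed to between 325 and 402 in AhRCA and between 456 and 639 in WT. All sums are in multiples of each array's 75th percentile. The brightest markers were the keratins Krt17 (difference -0.093) and Krt71 (-1.24), so the sum mainly follows keratins. It is no measure of the dividing matrix cells. Differences were negative for 12 of the 15 markers and positive for Shh (0.16), Lef1 (0.18) and Lhx2 (0.059). Of these 15 markers 1 passed, the stem cell marker Lgr5 (-0.83 ± 0.11, adjusted p = 0.0199, limma, Benjamini-Hochberg), and 0 were absent from all arrays. An unadjusted p under 0.05 held for 7 of the 15, against 12.2% of all genes. The AhRCA arrays all lay below the WT arrays for 6 of the 15, against 8.84% of all genes. These were Lgr5, Krt71, Krt25 (-1.12), Krt27 (-1.25), Krt31 (-1.98) and Krt35 (-0.86). Of 7 basal keratinocyte markers 1 passed, Krt15 (-0.72 ± 0.13, adjusted p = 0.0460), while 5 of the 7 had positive differences. The AhRCA arrays all lay above the WT arrays for 3 of these, as they did for 7.52% of all genes. The 3 were Col17a1 (0.51 ± 0.099, adjusted p = 0.0623, limma), Itgb4 (0.32 ± 0.14, adjusted p = 0.47) and Trp63 (0.18 ± 0.11, adjusted p = 0.69). The basal sum was between 715 and 820 in AhRCA and between 759 and 840 in WT. The 5 tested T cell markers, of which 0 passed, summed to between 0.641 and 0.761 in AhRCA and between 1.11 and 2.42 in WT. The brightest was Thy1 (difference -1.36), so this sum mainly follows it. All 5 differences were negative, down to a small one for Cd3e (-0.17). Cd3d and Il2rb were well above background on only 2 AhRCA arrays. All 5 endothelial markers failed the test of being well above background. The part of these cells in the cell cycle values was not tested, and fewer cells of a type cannot be told apart from less RNA per cell in whole epidermis.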

How the data were processed

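RNA of 6 epidermis samples (RNeasy Micro kit, Cy3 label, per the labels' protocols) was hybridized to 1-colour Agilent arrays, 1 per animal. Per the file headers, the deposited spot intensities were made with version 10.7.3.1 of Agilent's Feature Extraction software, are background-subtracted and detrended, with no scaling between arrays recorded there. The authors' deposited table of 41267 probes holds log2 values. Differences between its columns equalled those of the log2 intensities plus a constant (slope 1.0), so it is scaled per array. A value common to all arrays of a probe cancels in that comparison, which therefore cannot show whether the table is centred per probe.

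Control spots and 56 to 94 outlier spots per array were left out, and the log2 intensity minus each array's 75th percentile (intensity 627 to 754) was used. Of 41174 probes, 26690 matched 1 symbol of the GRCm38.p6 RefSeq table by unversioned accession and 14484 none. A probe was kept if 3 or more of its 6 arrays were well above background, and the probe with the highest mean stood for its gene. The genotypes were compared with limma 3.58.1 (R 4.3.3, lmFit and eBayes, 2 group means, two-sided, Benjamini-Hochberg over 12824 genes); 95% intervals are limma's and cover 1 gene at a time. The method was tested on simulated data with noise independent between arrays, so without the correlation within pairs. The planted genotype changes were larger than any member's difference. That simulation therefore does not show how often changes of the members' size would be found. The 3 genes with a value missing on an array were fitted without it; none is a member. Littermate numbers pair the samples: each sampling holds 1 pair per the labels. Deviations from group means (12821 genes) correlated at 0.337, 0.372 and 0.55 within pairs 1 to 3. Between pairs 1 and 2, both on slide 1, the values were 0.15 and 0.194. Between pair 3 and the others they ran from -0.416 to -0.356, where slide and sex differ as well. Deviations sum to 0 in each group, which pushes values between pairs down, so these correlations do not test the pairing by litter. The AhR, E2F, cell cycle homology and CCAAT motifs were searched in 37 members' windows. Array values are given for those with non-overlapping groups, the 3 largest differences per class and Mki67, Cdkn1a and Cdkn1b, and, chosen after seeing values, Mcm5, Plk1 and Ccnd2. Members and lists were chosen with earlier results of these data known. Alternatives tried were blocks for pair and slide, slide 1 alone, quantile and median scaling, normexp on the median signals (offset 50), the authors' table, other probe filters, the mean of a gene's probes, every probe as its own row (added after seeing the data) and leaving out each array.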

Additional observations from a re-analysis of the deposited data

How the results depend on the processing

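The count of 0 changed members held under every alternative run and the count of 0 among the 148 other cell cycle genes under every alternative run for them. The count of 0 members with unequal genotype effects on the slides rests on 1 array per genotype on slide 2 and says nothing about stability. Over all genes the count was 279, with 497 under the litter pair as replicate block and 539 under the slide as block; the pairing changed no member's call. It was 130 on slide 1 only and 132 with no filter on dim probes, and between 62 and 195 when 1 array was left out. The smallest adjusted p of a member was between 0.0978 (every probe as its own row, second Cdkn1b probe) and 0.818 (median scaling), with 0.0987 under the replicate block. Member signs, none of them called, turned for 5 genes under median scaling, 4 when a gene's probes were averaged, 3 on slide 1 only, 2 with normexp, 1 under quantile normalization and for up to 13 without WT replicate 1, where 24 of 44 were negative, against 35. The G1/S median ran from -0.27 to -0.034 when 1 array was left out (-0.035 without WT replicate 1, -0.034 without AhRCA replicate 3), and the G2/M median from -0.22 to 0.0056. Each such fit breaks 1 pair and leaves the slides unequal between the genotypes. The inhibitor median ran from -0.15 to 0.0385 in the same way and was 0.098 on slide 1 only. With a gene's probes averaged, the inhibitor median of pair 1 was 0.15, against 0.0 with 1 probe. Under median scaling the G1/S median of pair 2 was 0.011, against -0.058. The causes were not tested.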
